A study of Rattus norvegicus with 4 samples.

Results

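The genes described here are 10 immediate early genes in rat liver, *Fos*, *Jun*, *Junb*, *Egr1*, *Ier2*, *Ier3*, *Dusp1*, *Gadd45b*, *Myc* and *Cebpb*. They were chosen by symbol, as the rows of the abundance tables that carry these names, and make up 10 of the 16999 named genes analysed. Earlier results of these data were known at that choice, so their counts beside the shares of all genes are a description only. Each gene had a single row in every table. The tables came from the livers of 4 wild-type rats, with 1 library in each of 4 groups. In the sevoflurane 0 h group the rat inhaled 4.5% sevoflurane and was killed as soon as consciousness was lost, and in the sevoflurane 6 h group the inhalation lasted 6 h. The desflurane 0 h and desflurane 6 h groups were treated in the same way with 6% desflurane. Every rat had therefore inhaled an agent, and no library of an animal without one was analysed here. The livers of the 0 h and 6 h animals were also collected 6 h apart, so the length of anesthesia and the hour of the day cannot be told apart in any comparison over time. With single animals, no value below has a replicate error.

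Immediate early genes are genes that cells switch on within minutes of a signal, without first having to make new protein. Their promoters are bound by factors that are already present, such as serum response factor on CArG boxes and CREB on cAMP response elements, and MAP kinases activate those factors. Many of the transcripts are short-lived. In liver the group is known from the response to partial hepatectomy, to hormones of fasting and stress, and to injury.

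Sequences 250 bases upstream of the annotated transcription start were read from RefSeq (assembly GRCr8, whereas the abundance tables use rn6). The table held a promoter for 6 of the 10 genes (*Junb*, *Egr1*, *Ier2*, *Dusp1*, *Gadd45b* and *Cebpb*). These 6 are printed, 5′ to 3′ on the strand of the gene. They belong to 4 genes that were called higher at 6 h with at least 1 agent (*Gadd45b*, *Dusp1*, *Cebpb*, *Junb*), to *Ier2*, which was called lower with desflurane, and to *Egr1*, which was nearly silent in all libraries. Capitals mark matches to a CArG box, to TGACGTCA (the cAMP response element), to its 5-base core TGACG and to TATAA, on either strand. Their positions are chr7:9430719-9430968 (minus strand) for *Gadd45b*, and, all on the plus strand, chr10:17184603-17184852 for *Dusp1*, chr3:176816755-176817004 for *Cebpb*, chr19:40080876-40081125 for *Junb*, chr19:40399123-40399372 for *Ier2* and chr18:26736828-26737077 for *Egr1*.
Gadd45b: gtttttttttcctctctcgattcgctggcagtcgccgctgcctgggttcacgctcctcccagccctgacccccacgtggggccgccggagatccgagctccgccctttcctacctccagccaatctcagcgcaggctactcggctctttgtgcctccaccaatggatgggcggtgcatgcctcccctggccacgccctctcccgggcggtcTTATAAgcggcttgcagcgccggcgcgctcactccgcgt
Dusp1: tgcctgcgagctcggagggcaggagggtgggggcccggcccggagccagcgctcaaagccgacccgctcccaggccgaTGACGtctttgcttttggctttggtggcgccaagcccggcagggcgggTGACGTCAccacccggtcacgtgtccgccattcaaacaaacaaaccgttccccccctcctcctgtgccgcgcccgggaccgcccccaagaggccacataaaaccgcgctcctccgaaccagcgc
Cebpb: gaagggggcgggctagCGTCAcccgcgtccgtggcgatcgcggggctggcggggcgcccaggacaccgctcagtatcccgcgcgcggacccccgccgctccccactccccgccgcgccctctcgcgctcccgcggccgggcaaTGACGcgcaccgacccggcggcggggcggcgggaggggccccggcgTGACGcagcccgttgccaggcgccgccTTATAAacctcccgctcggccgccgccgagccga
Junb: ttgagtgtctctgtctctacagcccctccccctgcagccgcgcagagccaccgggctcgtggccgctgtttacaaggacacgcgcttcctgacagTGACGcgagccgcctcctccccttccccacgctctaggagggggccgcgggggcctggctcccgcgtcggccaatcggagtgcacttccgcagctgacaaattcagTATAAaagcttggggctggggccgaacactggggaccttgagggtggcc
Ier2: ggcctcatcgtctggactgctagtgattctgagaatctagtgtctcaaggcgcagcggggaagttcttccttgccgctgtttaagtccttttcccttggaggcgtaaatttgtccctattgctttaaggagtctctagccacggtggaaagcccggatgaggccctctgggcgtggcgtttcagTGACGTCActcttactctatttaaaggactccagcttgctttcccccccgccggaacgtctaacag
Egr1: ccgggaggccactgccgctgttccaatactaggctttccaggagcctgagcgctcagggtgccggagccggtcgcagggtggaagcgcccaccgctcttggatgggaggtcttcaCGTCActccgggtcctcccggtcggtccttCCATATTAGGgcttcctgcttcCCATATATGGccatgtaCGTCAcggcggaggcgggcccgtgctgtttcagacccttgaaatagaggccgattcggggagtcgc

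These windows differed in the elements they carried. Shares of all promoters refer to the 33469 promoters in the table, each a window of 300 bases that runs to 50 bases past the start. *Egr1* alone of the 6 held CArG boxes, at -105 to -96 and at -83 to -74 from the start, and 1.64% of all promoters held one. The full TGACGTCA was found in *Ier2* (-66 to -59) and *Dusp1* (-124 to -117), and in 1.83% of all promoters. Its core TGACG, which every full element contains, was found in 6 of 6 windows, against 21.2% of all promoters. In *Gadd45b* that core overlaps the start site (-3 to 2) and is not in the printed stretch. TATAA was found in *Gadd45b*, *Cebpb* and *Junb* and in 26.2% of all promoters, CACGTG (an E-box) in *Gadd45b* and *Dusp1* and in 6.42%, and GGGCGG (a GC box) in *Gadd45b*, *Dusp1* and *Cebpb* and in 33.1%. No match was found for TGACTCA or TGAGTCA (the AP-1 site, in 4.63% of all promoters), for AGAACA (the element for a single subunit of the paired glucocorticoid receptor, in 20.7%) or for the NF-kB site (in 5.02%). The GC content ran from 52.7% in *Ier2* to 81.0% in *Cebpb*, with a median of 51.7% over all promoters. These are matches of letters only. *Ier2* and *Dusp1*, the pair with the full cAMP response element, moved in opposite directions with desflurane, as described further on. Any part of the element in these changes was not tested.

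Abundance was given as TPM, which is scaled for transcript length and library size, so that levels of different genes can be set side by side. Aligned bases, worked out from coverage, came to 3.50 Gb for sevoflurane 0 h and to 5.29 to 5.57 Gb for the rest, and a TPM of 2 corresponded to a mean depth of 4.72 in the first and of 6.84 to 7.28 in the others. In both controls *Cebpb* had the highest TPM of the 10 genes and *Fos* and *Egr1* the lowest, below *Myc* and *Gadd45b*. *Dusp1*, *Ier2*, *Ier3*, *Jun* and *Junb* lay between, from 6.65 to 24.9, and their order differed between the controls. The summed TPM of the 10 genes was 116 and 89.0 in the controls of sevoflurane and desflurane, 214 in sevoflurane 6 h and 403 in desflurane 6 h. *Cebpb* stayed at the top at 6 h, while *Gadd45b* moved from the seventh place to the second with sevoflurane and to the third with desflurane.

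**Figure D1:**
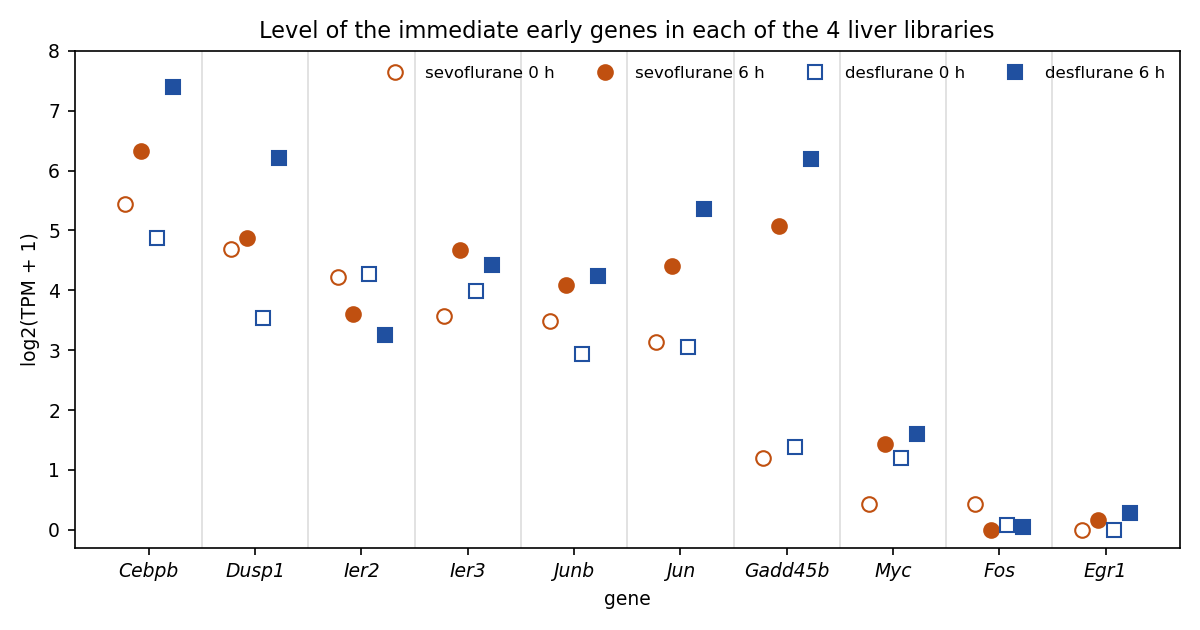
Level of each immediate early gene as log2(TPM + 1), with 1 symbol per library and no error bars, open for 0 h, filled for 6 h, circles for sevoflurane and squares for desflurane. *Gadd45b* shows the widest step from open to filled symbols, and *Fos* and *Egr1* lie near 0 throughout.

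Among the Fos and Jun proteins, which pair to form the transcription factor AP-1, *Jun* and *Junb* were above a TPM of 2 in every library and *Fos* was below it. *Jun* (chr5:114011186-114014277, minus strand) had a TPM of 7.80 in sevoflurane 0 h, 20.2 in sevoflurane 6 h, 7.27 in desflurane 0 h and 40.0 in desflurane 6 h. Both 6 h values lay above both controls, which differed by 1.07-fold. A gene was called higher or lower where its TPM was above 2 in the higher library and the ratio was above 2. By this rule *Jun* was higher at 6 h with sevoflurane (2.59-fold, 1.27 on the log2(TPM + 1) scale) and with desflurane (5.50-fold, 2.31). *Junb* (chr19:26092972-26094756, minus strand), which encodes an AP-1 subunit that is a weaker activator than Jun on many sites, had 10.2, 16.0, 6.65 and 17.9 in the same order. Its 6 h libraries were alike and its controls were not, and it was called higher with desflurane (2.69-fold) and not with sevoflurane (1.56-fold). With the controls exchanged both calls turned, to 2.40-fold for sevoflurane 6 h, which passed, and 1.74-fold for desflurane 6 h, which did not. *Fos* (chr6:109300433-109303299, plus strand), the partner that Jun needs for its most stable dimer, had 0.351, 0, 0.0551 and 0.0336. The corresponding mean depth of *Fos* was below 1 in every library, too low to resolve differences among these values.

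*Egr1* (chr18:27657903-27660101, plus strand), a zinc finger factor driven by serum response factor, was listed at 0 in both controls and at 0.120 and 0.215 at 6 h with sevoflurane and desflurane. Its mean depth at 6 h was 0.411 and 0.781, which is likewise too low to show a difference. *Myc* (chr7:102586313-102591239, plus strand), the factor that drives growth and ribosome production, had a TPM of 0.352 in sevoflurane 0 h, 1.71 in sevoflurane 6 h, 1.29 in desflurane 0 h and 2.04 in desflurane 6 h. The sevoflurane control stood apart with the low value, and the other 3 libraries were closer to each other. The ratio with sevoflurane was 4.84 but both libraries were below the minimum, and with desflurane the ratio was 1.58, so *Myc* was called with neither agent. *Fos*, *Egr1* and *Myc* were below a TPM of 2 in every library but 1 (*Myc* in desflurane 6 h).

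*Cebpb* (chr3:164424502-164425930, plus strand), which encodes a leucine zipper factor of hepatocytes that acts on gluconeogenic and acute-phase genes, had a TPM of 42.3 and 79.3 in the sevoflurane pair and of 28.4 and 168 in the desflurane pair. Both 6 h values were above both controls, and desflurane 6 h was the highest. It was called higher with desflurane (5.90-fold, 2.52 on the log2 scale) and fell short of the rule with sevoflurane (1.88-fold, 0.89). Set against the desflurane control, sevoflurane 6 h had a ratio of 2.79, which passed.

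*Gadd45b* (chr7:11646283-11648312, minus strand) encodes a stress sensor that binds and activates an upstream kinase of the p38 and JNK pathways. Its TPM was 1.31 in sevoflurane 0 h, 32.8 in sevoflurane 6 h, 1.60 in desflurane 0 h and 72.5 in desflurane 6 h. The 4 libraries fell into a low pair at 0 h and a high pair at 6 h, with a mean depth of the gene of 3.09 and 5.51 in the controls and of 112 and 264 at 6 h. It was called higher with sevoflurane (25.0-fold, 3.87) and with desflurane (45.4-fold, 4.82), ranking 10 of 8270 and 5 of 8372 genes by the change. The listed span of the olfactory receptor *Olr1059*, chr7:9135535-16364579, is far longer than *Gadd45b* and covers the whole of it on the same strand. That receptor was listed at 0 in all 4 libraries.

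*Dusp1* (chr10:16970642-16973425, plus strand), the phosphatase that switches off p38 and JNK, had a TPM of 24.9 in sevoflurane 0 h, 28.2 in sevoflurane 6 h, 10.7 in desflurane 0 h and 73.1 in desflurane 6 h. The controls were 2.34-fold apart, and the sevoflurane pair differed by less than the controls did. It was called higher with desflurane (6.86-fold, 2.67) and not with sevoflurane (1.13-fold, 0.17). With the controls exchanged, the ratio was 2.65 for sevoflurane 6 h and 2.93 for desflurane 6 h, and both passed the rule.

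*Ier3* (chr20:3438798-3440002, minus strand), a small regulator of cell survival that NF-kB induces, had a TPM of 10.9 and 24.6 in the sevoflurane pair and of 14.8 and 20.5 in the desflurane pair, at 0 h and 6 h. It was called higher with sevoflurane (2.26-fold, 1.11) and not with desflurane (1.39-fold, 0.45). Against the desflurane control the sevoflurane ratio was 1.66 and the call was lost. *Ier2* (chr19:25774146-25775670, minus strand), which encodes a nuclear protein linked to growth factor responses, had 17.6 and 11.2 with sevoflurane and 18.2 and 8.51 with desflurane. Its controls were 1.03-fold apart and both 6 h values lay below them. It was called lower with desflurane (2.14-fold, -1.02) and not with sevoflurane (1.57-fold, -0.61), and with libraries rescaled by their median of ratios the desflurane change was -0.91 and no longer passed.

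With sevoflurane 3 of the 10 genes were called higher (*Jun*, *Ier3*, *Gadd45b*) and 0 lower, against 5.04% higher and 3.71% lower among all 8270 genes above the minimum. With desflurane 5 were called higher (*Jun*, *Junb*, *Dusp1*, *Gadd45b*, *Cebpb*) and 1 lower (*Ier2*), against 4.10% and 5.55% of 8372 genes. The minimum was met by 7 of the 10 with sevoflurane and by 8 with desflurane. *Gadd45b* with both agents and *Myc* with desflurane met it through the 6 h library alone. All 10 genes together had a median change of 0.74 with sevoflurane, beside 0.05 for all genes above the minimum, and of 0.87 with desflurane, beside -0.10. *Jun* and *Gadd45b* were the members called higher with both agents.

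**Figure D2:**
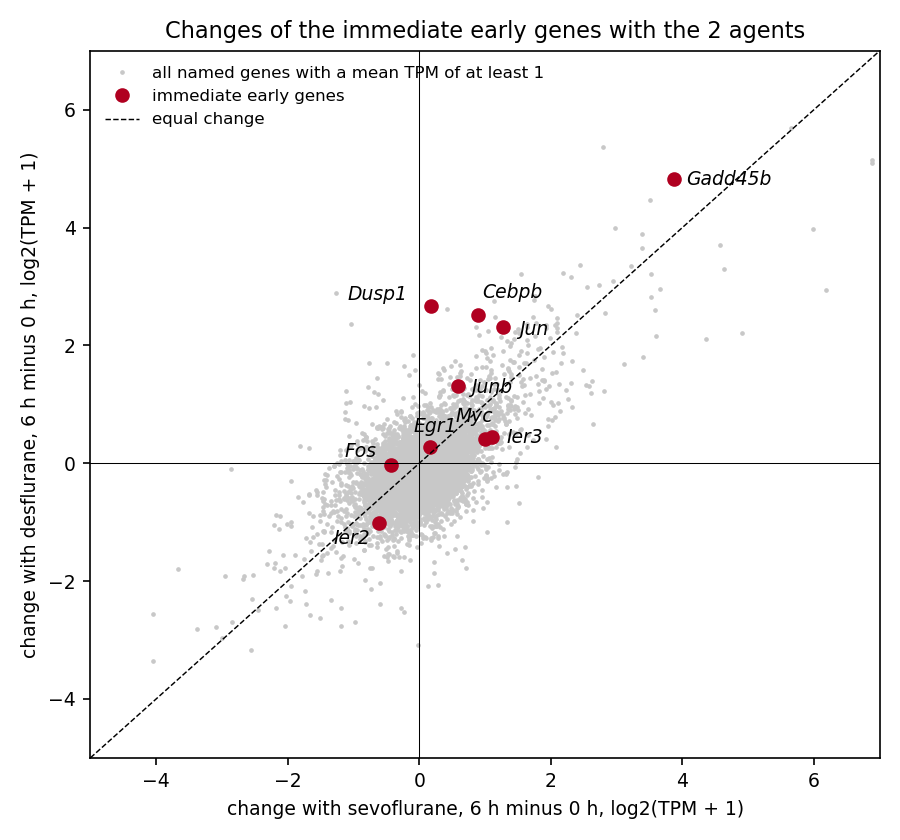
Change from 0 h to 6 h of each immediate early gene (red, named) with sevoflurane on the horizontal and desflurane on the vertical axis, both as the difference of log2(TPM + 1), with the 9201 named genes whose mean TPM reached 1 in grey and a dashed line of equal change. *Dusp1* and *Cebpb* lie furthest above the line, at 0.17 and 2.67 and at 0.89 and 2.52, and *Gadd45b* lies at 3.87 and 4.82.

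The same rule was applied between the controls, which are single rats killed at the same stage. They had inhaled different agents and the sevoflurane library was shallower, so animal, agent and depth cannot be told apart here. None of the 10 genes was higher in the desflurane control and 1, *Dusp1*, was lower, against 1.96% and 0.799% of 8263 genes. *Dusp1* was the 16th from the bottom among these genes. *Junb* and *Cebpb* were also lower in the desflurane control, by 1.54-fold and 1.49-fold, without passing the rule, and *Myc* was 3.66-fold higher at values below the minimum. *Jun*, *Ier2* and *Gadd45b* differed by 1.22-fold or less. The median of the 10 was -0.04, that of the 6 members above the minimum -0.32 and that of all genes above the minimum 0.12.

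Between the 6 h libraries, 3 genes were higher with desflurane and 0 lower, against 2.21% and 1.77% of 8229 genes. They were *Dusp1* (2.59-fold), *Gadd45b* (2.21-fold) and *Cebpb* (2.11-fold). *Jun* was just short of the rule, at 1.98-fold, and passed it after scaling by the median of ratios. *Junb* (1.12-fold), *Ier2* (1.32-fold lower with desflurane) and *Ier3* (1.20-fold lower with desflurane) were close between the agents. This comparison shares its libraries with those over time, and whether a gene responded differently to the agents could not be tested with 1 library in each group. The median of the 10 was 0.16 against -0.03 for all genes above the minimum.

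The change common to both agents was then estimated, so that the 10 genes could be given an error. For the 8024 genes whose mean TPM reached 2, limma was fitted to log2(TPM + 1) with a block for the agent, and p-values were adjusted by the Benjamini-Hochberg method over all of these genes. The block left 1 residual degree of freedom, which is the disagreement between the changes of the sevoflurane and desflurane pairs. That disagreement mixes any difference between the agents with the difference between animals. Most of the precision came from the spread shared across genes (10.9 prior degrees of freedom). The p-values therefore do not measure the spread between animals of 1 group. Of the 10 genes, 7 were tested and all 7 passed an adjusted p of 0.05, 6 of them higher and 1 lower. Among all genes tested, 4.69% were higher and 3.94% lower. The 10 genes were chosen with earlier results of these data known, so this contrast is a description and no support for the group. *Fos*, *Egr1* and *Myc* had too low a mean, and *Gadd45b* reached the mean of 2 through its 6 h values alone. *Gadd45b* rose by 4.35 ± 0.246 on the log2 scale (SE, 2 animals at each time, 1 for each agent, adjusted p = 3.55e-07 by limma). *Jun* rose by 1.79 ± 0.240 (limma adjusted p = 0.000401) and *Cebpb* by 1.71 ± 0.275 (limma adjusted p = 0.00171). *Junb* rose by 0.95 ± 0.222 (limma adjusted p = 0.0174), *Ier3* by 0.78 ± 0.206 (limma adjusted p = 0.0349) and *Dusp1* by 1.42 ± 0.398 (limma adjusted p = 0.0460). *Ier2* fell by 0.81 ± 0.201 (limma adjusted p = 0.0238).

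**Figure D3:**
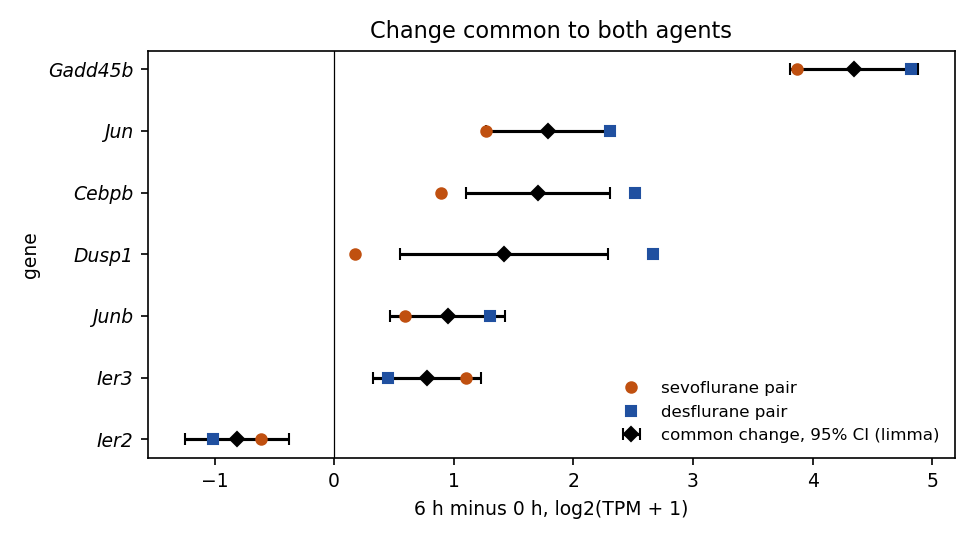
Change from 0 h to 6 h on the log2(TPM + 1) scale for the 7 immediate early genes tested, with circles for the sevoflurane pair, squares for the desflurane pair, and diamonds with bars for the common change and its 95% confidence interval from limma. The pairs of *Dusp1* (0.17 and 2.67) and *Cebpb* (0.89 and 2.52) lie outside their own intervals, and those of the other 5 genes lie inside.

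These calls were not equally firm. With each library left out in turn, *Gadd45b* rose by 3.79 to 4.91, *Jun* by 1.31 to 2.27 and *Cebpb* by 1.17 to 2.24. *Junb* rose by 0.67 to 1.23, *Ier3* by 0.57 to 0.98 and *Dusp1* by 0.75 to 2.09. The change of *Ier2* was between -0.99 and -0.63. These fits had no block and a single library at a time point, so only the size of the change is given. The change of *Dusp1* was 0.84 without the desflurane control and 0.75 without desflurane 6 h. *Myc* entered the fit when the minimum was lowered to 1, with a change of 0.70 (limma adjusted p = 0.129). Without any minimum on the mean TPM none of the 10 passed with limma, and 25 of 13629 genes did. In that fit 8 of the 10 had an unadjusted limma p under 0.05, beside 1865 of all 13629 genes.

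Each table also lists loci that the authors' software assembled from the reads, beside the named genes. For *Jun*, *Junb*, *Ier2*, *Ier3* and *Cebpb* a locus with the same ends and the same TPM was listed in all 4 libraries. For *Dusp1* and *Gadd45b* the TPM of the locus was within 4.88% and 8.89% of that of the gene in every library. The *Myc* loci covered a part of the gene in 3 libraries and differed from it by up to 102%. *Fos* had an assembled locus in sevoflurane 0 h only, over 24.2% of the gene, and *Egr1* in desflurane 6 h only. No locus on the opposite strand was listed at any of the 10 genes.

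Genes of the same pathways were examined as 9 lists with 99 distinct genes, chosen by function with earlier results of these data known. Their counts beside the shares of all genes are therefore a description only. With sevoflurane 63 of the 99 were above the minimum. Of these, 16 were called higher and 3 lower, beside the 5.04% and 3.71% of all genes above the minimum. With desflurane 66 were above it, with 24 called higher and 3 lower, beside 4.10% and 5.55%. The median change over the 99 was 0.14 and 0.11. The same shares of all genes stand beside the counts of each list that follows, in which a gene below the minimum could not be called. Of the 11 other AP-1 and small Maf factors, 1 was higher with sevoflurane and 4 with desflurane. *Maff*, a small Maf repressor, went from 0.116 to 2.25 TPM with sevoflurane and, with desflurane, from 0.154 to 9.63. *Mafk* was called higher with desflurane (5.29 to 15.9), as was the stress factor *Atf3* (1.04 to 4.14), and neither with sevoflurane (6.11 to 7.91 and 0.861 to 0.855). Of the 10 EGR and serum response factor genes found, only *Ccn2*, a matrix protein gene, was called higher, in the sevoflurane pair from 1.32 to 3.78 and in the desflurane pair from 1.46 to 5.59.

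Among 19 other inducible transcription factors and regulators, 5 were called higher with sevoflurane and 7 with desflurane, and 1 was lower with each. *Klf9* went from 10.2 to 46.8 TPM and from 11.7 to 61.5, and the clock gene *Per1* from 0.352 to 6.05 and from 1.38 to 9.95, with sevoflurane and desflurane respectively. *Id2*, an inhibitor of helix-loop-helix factors, was the lower one with both agents, from 80.0 to 11.7 and from 69.1 to 17.0.

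The other DUSP phosphatases of MAP kinases, which differ from *Dusp1* and from each other in the kinases they act on, were called in either direction. Only 2 of them were above the minimum with each agent. Of the 9, *Dusp16* was higher with sevoflurane (1.66 to 3.99) and not with desflurane (2.89 to 3.75). *Dusp6*, the phosphatase of ERK, was lower with desflurane (16.0 to 3.13) and was not called with sevoflurane (11.2 to 7.08). Of 12 genes of the MAP kinase modules, on whose kinases these enzymes act, 0 were called with either agent, and their medians were 0.13 and 0.02. In the list of 7 GADD45 and growth arrest genes, 3 were higher with sevoflurane and 4 with desflurane. *Gadd45a*, a paralog of *Gadd45b*, went from 4.48 to 21.5 and from 11.7 to 45.9 TPM, *Ppp1r15a*, a phosphatase subunit of the integrated stress response, from 3.34 to 8.65 and from 2.33 to 17.6, and *Btg2* from 5.23 to 4.30 and from 3.89 to 14.4, the last called with desflurane only. The remaining paralog, *Gadd45g*, which is named here after its values were seen, was called with neither agent, at 17.9 and 16.0 TPM with sevoflurane and 47.0 and 27.6 with desflurane.

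Of the other 5 C/EBP genes, *Cebpd* was called higher with sevoflurane (1.23 to 2.59) and not with desflurane (2.84 to 3.85), and no other was called. None of the 10 genes found of the MYC and MAX network was called with either agent, and only 5 of them were above the minimum with each. Of 16 genes for mRNA decay and feedback inhibition, 4 were called higher with sevoflurane and 8 with desflurane, and 2 and 1 lower. *Zfp36*, whose product destroys AU-rich transcripts such as those of *Fos*, went from 2.37 to 7.49 and from 1.32 to 10.1 TPM. *Rgs16* went from 0.315 to 5.50 and from 0.412 to 11.7, and *Trib3* from 4.97 to 9.86 (not called) and from 3.02 to 18.9.

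**Figure D4:**
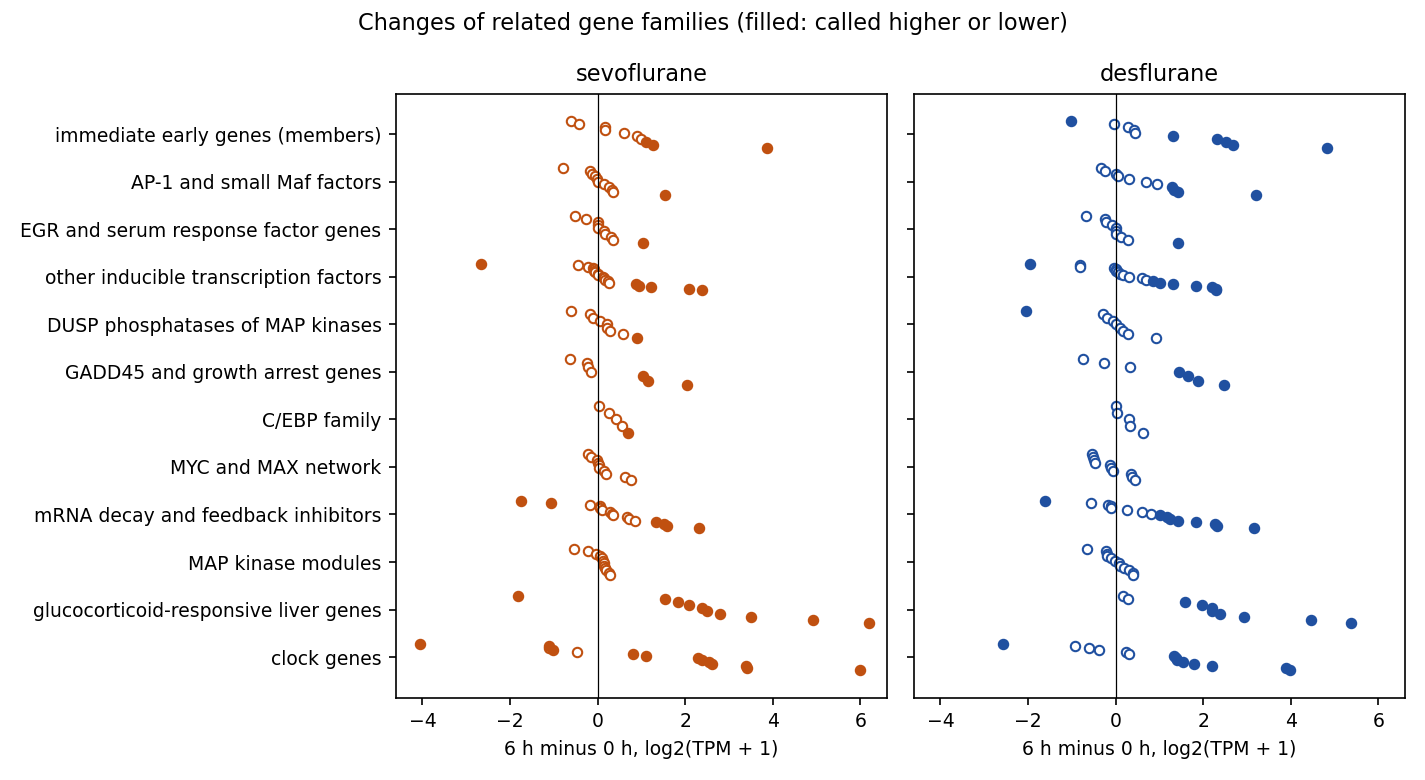
Change from 0 h to 6 h of the immediate early genes and of 11 related lists, as the difference of log2(TPM + 1), with sevoflurane on the left and desflurane on the right. Each point is 1 gene, filled where it was called higher or lower, and the MAP kinase modules and the MYC and MAX network hold no filled point.

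A pair of further lists, also chosen with earlier results known, was counted in the same libraries. There 5.04% of all genes above the minimum were called higher and 3.71% lower with sevoflurane, and 4.10% and 5.55% with desflurane. Of 10 glucocorticoid-responsive liver genes, 9 were called higher with sevoflurane and 8 with desflurane, and 1 and 0 lower (medians 2.44 and 2.20), and 3 were higher in the desflurane control than in the sevoflurane control (median 0.61). Of 14 clock genes found, 9 were called higher with sevoflurane and 8 with desflurane, and 3 and 1 lower, and the rest were not called. *Per1* is in both of these lists and in that of the inducible regulators. Their part in the changes of the immediate early genes was not tested.

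For each gene, the 3 genes with the nearest profile over the 4 libraries were looked up among the 9201 whose mean TPM reached 1, by the Euclidean distance of log2(TPM + 1) centred on the mean of the gene. The nearest to *Gadd45b* were *Lpin1* (0.40), *Ciart* (0.74) and *Igfbp1* (0.86), where *Gadd45b* itself lay 4.42 from a flat profile. *Lpin1*, a phosphatidate phosphatase, went from 5.58 to 74.0 TPM with sevoflurane and, with desflurane, from 7.43 to 186. The nearest to *Jun* were *Ppp1r15a* (0.21), *Dcaf13* (0.24) and *Pnpla2* (0.25), and those to *Cebpb* were *Ppp1r15a* (0.19), *Trib3* (0.19) and *Sik1* (0.30), against 1.91 for the distance of either from a flat profile. *Dusp1* had less close neighbours, which were *Slc16a6* (0.44), *Cebpb* (0.55) and *Trib3* (0.55). *Ier2* was nearest to *Traf1* (0.03), *Mob3b* (0.05) and *Tsen15* (0.07), *Ier3* to *Nsun5* (0.02), *Abcg8* and *RGD621098* (both 0.10), and *Junb* to *Acy3* (0.09), *Hnrnpd* (0.14) and *Slc1a2* (0.15). *Myc* was nearest to *Plekhg5* (0.05), *Amn1* and *Baiap2* (both 0.12). *Fos* (0.34 from a flat profile) and *Egr1* (0.24) were near flat, and their nearest genes *Fxyd2*, *Lhx8* and *Afap1l1*, and *Sumf1*, *Tlr6* and *Vwf*, were near flat as well. These distances rest on 4 libraries and are a description only.

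In a piece of liver, fewer cells of a type and less RNA per cell cannot be told apart, so markers of the cells that a piece may hold were read in the same tables. The 8 hepatocyte markers had a summed TPM of 94431 to 105988 and none was called with either agent. The 9 macrophage markers summed to 432 in sevoflurane 0 h, 364 in sevoflurane 6 h, 416 in desflurane 0 h and 486 in desflurane 6 h, and none was called. For the counts that follow, 5.04% of all genes above the minimum were called higher and 3.71% lower with sevoflurane. With desflurane the shares were 4.10% and 5.55%. Of the 8 neutrophil markers, which summed to between 2.26 and 4.42, the granule genes *Mpo* and *Elane* were listed at 0 in all 4 libraries. Among them, 1 marker was called higher with sevoflurane and 1 lower with desflurane, in each case the only 1 above the minimum. The T and NK cell markers summed to between 10.5 and 14.3, with 2 of 8 called lower with sevoflurane and 1 with desflurane. Only 3 of the 8 were above the minimum with sevoflurane and 2 with desflurane. Of the 6 stellate cell markers (32.5 to 35.3 in sum), *Pdgfrb*, likewise named after its values were seen, was called lower with sevoflurane, from 6.04 to 2.41, and not with desflurane, from 4.51 to 2.65. None was called among 4 endothelial (44.4 to 55.0), 3 cholangiocyte (6.61 to 8.08) and 3 B cell markers (0.234 to 1.19). With each agent 4 endothelial, 1 cholangiocyte and 0 B cell markers were above the minimum, so no B cell marker could be called. The 5 red blood cell genes found summed to 453, 1216, 729 and 1345 in the same order. With each agent 3 of them were above the minimum, and 3 were called higher with sevoflurane and 0 with desflurane. The sum of the red blood cell genes was higher in both 6 h libraries, as was that of the immediate early genes. Its part in their changes was not tested.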

How the data were processed

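Livers of 4 rats were measured by RNA sequencing, 1 library per group, and groups were taken from the titles in the labels. Per the labels, tissue went into RNAlater, an RNeasy Midi kit gave total RNA, and the library kit was TruSeq Stranded Total RNA Gold, which removes ribosomal RNA. The submitters' processing notes name HISAT2, SAMtools, StringTie and the genome build rn6. For versions, annotation, strain, sex and age, the sources used here give nothing.

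Each library's deposited table holds coverage, FPKM and TPM per gene. The deposited TPM of the assembled loci alone fills a whole TPM column and named genes add between 0.766 and 0.789 of that sum, so the authors' TPM column was handled as a score. The deposited FPKM differs from TPM by a constant within a library (1.48 to 1.57) and was used only as coverage divided by FPKM, which gives the aligned bases. The deposited coverage, a signal, is the mean depth per base. Read counts are not in the tables, so counting intervals were not given, and values of low genes are least precise in the shallowest library (sevoflurane 0 h).

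Rows of one symbol were summed, and only those spanning over 200 bp were kept (16999 of 17455 symbols). A gene was called where TPM was above 2 in the higher library and the ratio above 2, without a p-value. Changes are of log2(TPM + 1), which understates those of low genes. The common change was fitted with limma 3.58.1 (R 4.3.3, eBayes with trend, two-sided) over genes whose mean TPM reached 2. Promoters came from RefSeq (GRCr8). Other steps used Python 3.11.15 with pandas 2.3.3, numpy 2.4.6 and matplotlib 3.10.9, and were tested on simulated data. The 10 genes, the lists and the tests were chosen with earlier results of these data known. Named genes are the 10, up to 3 per list with the largest change among those called, and the 3 nearest profiles of each. Alternatives were the ratio, the minimum, the pseudocount, the scaling, the control used, the assembled locus, the block and leaving out each library.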

Additional observations from a re-analysis of the deposited data

How the results depend on the processing

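Over the alternatives, no change of direction was seen for a called gene. The ratio, the minimum, the block and the trend could not change a direction, and nor could the pseudocount between 2 libraries. With sevoflurane the 3 genes called higher became 5 at a ratio above 1.5, 1 at a ratio above 3, 5 without a TPM minimum and 5 against the other control, and the 0 called lower became 1 at a ratio above 1.5 and 1 without a minimum. With desflurane the 1 called lower became 0 at a ratio above 3 and 0 after scaling by the median of ratios, and the median of 0.87 became 1.53 with a pseudocount of 0.1 and 1.81 for the assembled loci, which are missing for *Fos* and *Egr1* in most libraries. Between the controls the 1 called lower became 2 at a ratio above 1.5, 0 at a ratio above 3 and 2 without a minimum, and 1 gene was called higher without a minimum and 1 with a TPM minimum of 1. Between the 6 h libraries the 3 called higher became 0 at a ratio above 3, and the median became 0.55 for the assembled loci. Shares of all genes were worked out at the main setting of the rule only, so the other counts cover the members alone. In the common change the main fit had 7 members past the threshold, beside 692 of all 8024 genes. Without a minimum on the mean TPM there were 0, beside 25 of 13629 genes, and without the trend 3, beside 440 of 8024. The cause was not tested. Without the agent as a block, which pairs the libraries, 488 of 8024 genes and 5 of the 7 passed the threshold (*Dusp1* and *Ier3* did not). *Dusp1* and *Ier3* also missed it with a mean TPM minimum of 1 or 5 and without the trend, and *Dusp1* with a pseudocount of 0.1 and scaled values. Over the alternatives that kept all 4 libraries, the adjusted p from limma was 0.0269 to 0.438 for *Dusp1* and 0.0269 to 0.279 for *Ier3*. Of all values recomputed for single genes, 388 stayed on the same side of the rule or threshold, 47 lost a call and 21 gained one. Part of the 388 was fixed in advance, because the pseudocount does not enter the rule of TPM and ratio. This count is therefore no measure of how firm the calls were. Single animals, the common shift in harvest time and the lower depth of the sevoflurane control limit these results, and *Fos*, *Egr1* and *Myc* are too low to be compared.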
